A study of Mus musculus with 38 samples.

Results

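The genes described here are Il6 and its relatives Lif, Osm and Il11, the receptor chains Il6ra, Il6st and Osmr, the transcription factor Stat3, its inhibitor Socs3, and Prdm1, a transcriptional repressor known to act downstream of Stat3. Members were chosen by name: every probe on the array that was not a control and whose gene name was one of these 10 was taken. Of the 10 genes, 9 had a probe under their own name, among 27962 gene names on the array, and these 9 gave 13 probes. Lif had none, and a probe described as a leukemia inhibitory factor clone is given apart from the members.

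Expression was profiled in the MMTV-PyMT model of breast cancer, a transgenic mouse whose oncogene, polyoma middle T, is under a mouse mammary tumor virus promoter that is active in mammary epithelium but not only there. Hyperplasias from donors that carried both MMTV-PyMT and GFP under an actin promoter were transplanted into cleared mammary fat pads of FVB/n hosts, and GFP-positive cells were sorted for every group. Because the actin promoter is active in most cell types, GFP marks cells of donor origin and not epithelium alone. The progression experiment held 5 samples of adenoma (outgrowths of 5 weeks), 6 of carcinoma (outgrowths of 18 weeks), 6 of disseminated cells and 5 of metastases. Disseminated cells came from lungs of mice with 18-week outgrowths, with lungs of several mice pooled, and metastases from lungs of mice whose primary tumor had been removed. The chemotherapy experiment held 6 untreated tumors, 6 residual tumors (labelled regressed, taken 10 days after 1 dose) and 4 relapsed tumors (labelled resistant, taken 10 days after 4 doses). The treatment combined docetaxel, doxorubicin and cyclophosphamide.

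IL-6 is a cytokine released by macrophages, fibroblasts, endothelium and some tumor cells. It binds IL-6 receptor alpha (Il6ra), and the complex engages gp130 (Il6st), the chain that most cytokines of this family share. Jak kinases bound to gp130 then phosphorylate Stat3, which moves to the nucleus and activates its target genes. Socs3 is both a target of Stat3 and an inhibitor of gp130 and Jak, which closes a negative feedback loop. Prdm1 (Blimp-1) is best known for driving plasma cell differentiation and also acts in T cells and in macrophages.

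Each value below is a log2 ratio of the sample (Cy5) to a Universal mouse reference RNA (Cy3) on the same array, so that a difference of 1 is a 2-fold change. Levels of different probes cannot be set against each other on this scale. A probe counts as called where its adjusted p was below 0.05 in limma's moderated test, with Benjamini-Hochberg adjustment over all 41174 probes, and the change was at least 2-fold. Intensities have no read depth, and the number of arrays limits the precision. The median share of spots with a sample signal well above background was 61.6% for adenoma, 74.2% for carcinoma, 70.3% for disseminated cells and 74.6% for metastases.

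Some arrays stood apart from their group. Over all probes, carcinoma sample 6 correlated with its own group at a median of 0.768, against 0.940 to 0.958 for the rest of that group. Its highest median correlation with a group was with the metastases. Disseminated sample 6 had the lowest such median of the progression arrays (0.685) and disseminated sample 4 one of 0.773, against 0.825 to 0.848 for the other disseminated samples. Disseminated samples 1 and 6 had their highest median correlation with the metastases, disseminated sample 4 with the adenomas and metastasis sample 5 with the carcinomas. Adenoma and disseminated samples shared slides 9, 10 and 11, and carcinoma and metastasis samples shared slides 6, 7 and 8, which were scanned on another day. A comparison that crosses these sets, such as disseminated cells with carcinoma, cannot be told apart from slide and scan day. Changes of the called members against carcinoma are therefore given with and without carcinoma sample 6, those of disseminated cells also without disseminated sample 6, and the comparisons inside a set also within each slide.

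For Il6, Socs3 and Prdm1, the 3 members called in 4 of the 6 progression comparisons, the 250 bases before the start of the gene are shown, from RefSeq on build GRCm38.p6. Capitals mark a match, on either strand, to the NF-kB motif (GGG, any 2 bases, then TTTCC) or to the Stat motif TTCNNNGAA, the sites of 2 kinds of factor known to act on genes of inflammation. The Il6 window is chr5:30012864-30013113 (+ strand), the Socs3 window chr11:117969367-117969616 (- strand) and the Prdm1 window chr10:44458749-44458998 (- strand).
Il6: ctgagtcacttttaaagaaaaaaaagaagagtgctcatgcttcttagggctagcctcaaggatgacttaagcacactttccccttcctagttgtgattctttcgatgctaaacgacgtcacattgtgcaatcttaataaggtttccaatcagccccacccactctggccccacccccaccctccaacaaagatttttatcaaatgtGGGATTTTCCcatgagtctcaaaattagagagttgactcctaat
Socs3: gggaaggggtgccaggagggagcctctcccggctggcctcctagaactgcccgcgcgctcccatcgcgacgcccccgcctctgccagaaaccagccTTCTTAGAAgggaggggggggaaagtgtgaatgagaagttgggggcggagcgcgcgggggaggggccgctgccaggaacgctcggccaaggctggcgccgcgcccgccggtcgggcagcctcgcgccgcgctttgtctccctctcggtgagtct
Prdm1: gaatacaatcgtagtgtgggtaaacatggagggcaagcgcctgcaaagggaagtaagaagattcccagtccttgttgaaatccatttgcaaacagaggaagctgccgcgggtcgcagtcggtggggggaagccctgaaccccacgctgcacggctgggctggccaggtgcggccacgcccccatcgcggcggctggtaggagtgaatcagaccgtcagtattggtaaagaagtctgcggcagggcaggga
The Il6 window held the letters GGGATTTTCC from base 44 to base 35 before the start, a motif found in 1.41% of 32851 promoter windows of this length. The Socs3 window held TTCTTAGAA from base 154 to base 146 before the start, a motif found in 7.02% of them. The Prdm1 window held neither motif.

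Il6, Socs3 and Prdm1 were higher in disseminated cells and in metastases than in either kind of primary tumor, and Osm was higher in disseminated cells than in both. Il11 followed another order and was highest in metastases, but it was called only in comparisons that cross the slide sets. The receptor chains Il6ra, Il6st and Osmr and the factor Stat3 had no probe called in any of the 6 progression comparisons. In disseminated cells against carcinoma, 4 of the 13 member probes were called, all higher (Il6, Socs3, Prdm1 and 1 of 2 Osm probes), while 10.5% of all probes were called. Against adenoma, 5 were called, all higher (Il6, Socs3, Prdm1 and both Osm probes), with 9.2% of all probes called. In metastases, 3 were called higher than in carcinoma (Il6, Socs3 and Prdm1), where 9.81% of all probes were called, and 4 were called higher than in adenoma (Il6, Socs3, Prdm1 and Il11), where 13.9% were. These comparisons share samples and are not independent of each other. Between disseminated cells and metastases 1 member was called, Il11, which was lower in disseminated cells, with 6.94% of all probes called. In carcinoma against adenoma limma called 0 members, with 3.35% of all probes called, although 4 member probes had an unadjusted p below 0.05; a test without moderation also called 0 past the 2-fold line. The median change over the 13 member probes was 0.44 on the log2 scale in disseminated cells against carcinoma, beside -0.05 over all probes, and 0.10 in metastases against carcinoma, beside -0.03.

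**Figure D1:**
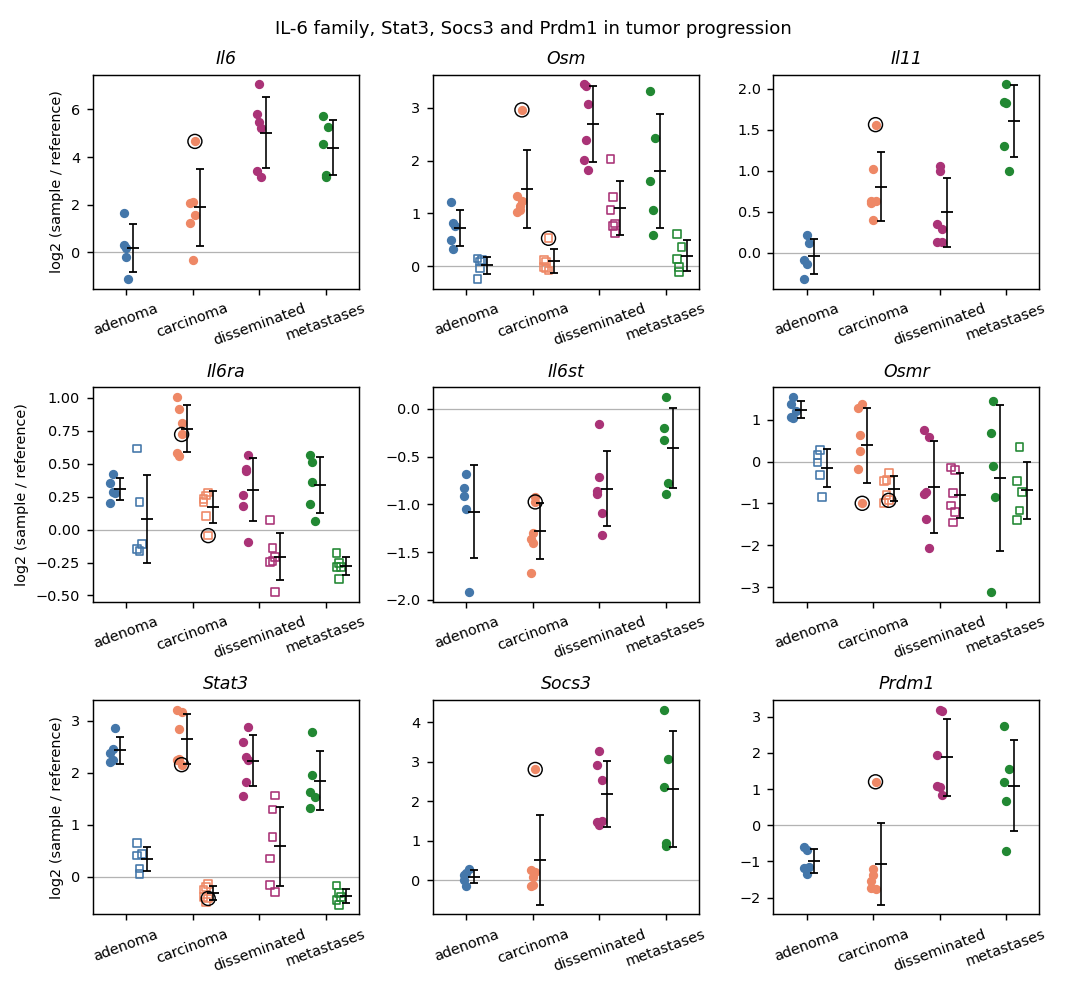
Log2 ratio of sample to reference (vertical axis) of each member in every sample of the 4 progression groups, with the group mean and SD as bars. Filled circles are a gene's only or first probe and open squares its second, and Il6, Socs3 and Prdm1 lie higher in disseminated cells and metastases than in adenoma, with carcinoma sample 6 above the other carcinomas (4.66, 2.80 and 1.20).

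Il6, the founding ligand of the family, was read by 10 spots of a probe at chr5:29052734-29052793 (+ strand) in build mm7, the build of the array design. No annotation of that build was used here, so probes are not assigned to exons. The log2 ratios in the 5 adenomas were 1.66, 0.18, -1.11, 0.33 and -0.20, with the -1.11 not well above background. In the 6 carcinomas Il6 ran from -0.30 to 4.66 with a median of 1.81. In the 6 disseminated samples it ran from 3.15 to 7.06 with a median of 5.36. The 5 metastases gave 4.57, 3.23, 5.27, 5.73 and 3.17. Every disseminated sample and every metastasis lay above all adenomas, and the only primary tumor in their range was carcinoma sample 6, at 4.66; the next carcinoma was at 2.11. Il6 was 8.82-fold higher in disseminated cells than in carcinoma, a log2 change of 3.14 (SE 0.75, limma adjusted p = 0.00514), and 29.0-fold higher than in adenoma (4.86, SE 0.79, adjusted p = 0.000774). In metastases it was 5.68-fold higher than in carcinoma (2.51, SE 0.79, adjusted p = 0.0289) and 18.7-fold higher than in adenoma (4.22, SE 0.82, adjusted p = 0.000931). By group mean the order was disseminated cells, metastases, carcinoma and adenoma. The neighbours disseminated cells and metastases did not differ beyond their spread (0.63, adjusted p = 0.669). Carcinoma exceeded adenoma by 1.72 (SE 0.79), which did not pass the test (limma adjusted p = 0.167).

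Osm encodes oncostatin M, a relative of IL-6 made mainly by macrophages, neutrophils and T cells, and was read by 2 probes, at chr11:4192146-4192205 (probe 1) and chr11:4191500-4191559 (probe 2) of mm7, both on the + strand. With probe 1 the adenomas had log2 ratios of 0.49, 0.32, 0.77, 1.21 and 0.82, and the carcinomas ran from 1.02 to 2.96 with a median of 1.19. The disseminated samples ran from 1.82 to 3.44 with a median of 2.73, and the metastases gave 1.61, 0.60, 2.43, 3.31 and 1.06. All disseminated samples lay above all adenomas and above 5 of the 6 carcinomas, sample 6 being the exception at 2.96. Osm was 2.35-fold higher in disseminated cells than in carcinoma (1.23 on the log2 scale, SE 0.42, limma adjusted p = 0.0376) and 3.91-fold higher than in adenoma (1.97, SE 0.44, adjusted p = 0.00549). Its means fell in the order disseminated cells, metastases, carcinoma and adenoma, and no difference between neighbours in that order passed the test (limma adjusted p = 0.202, 0.663 and 0.301).

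Probe 2 of Osm was dim. It was well above background in 0 of 5 adenomas, in 1 of 6 carcinomas (sample 6, at 0.53), in all 6 disseminated samples and in 3 of 5 metastases. The disseminated samples had log2 ratios between 0.64 and 2.03 with a median of 0.94, above every other progression sample. Because no adenoma was well above background, the difference from adenoma is a bound, at least 1.94-fold with the adenoma signal set to the lowest that was well above background (limma adjusted p = 0.00165 for the measured means of 1.10 and 0.02). Against carcinoma the measured means differed by 0.997 on the log2 scale (SE 0.19, limma adjusted p = 0.00103), just under the 2-fold line, and against metastases by 0.90 (SE 0.20, adjusted p = 0.00556). With most carcinomas and 2 of 5 metastases not well above background, these sizes are not exact and depended on the processing. With the scanner's processed signals they were 3.07 and 2.34.

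Il11, a ligand that also signals through gp130 and is known from bone metastasis and from stromal cells, was read by a probe at chr7:4347807-4347866 (- strand, mm7). The adenomas had log2 ratios of -0.32, 0.22, 0.13, -0.09 and -0.13. The carcinomas ran from 0.40 to 1.56 with a median of 0.63, and the disseminated samples from 0.13 to 1.06 with a median of 0.32. The metastases gave 1.84, 2.06, 0.99, 1.30 and 1.83. No metastasis overlapped the adenomas, and 4 of the 5 lay above every disseminated sample. Il11 was 3.13-fold higher in metastases than in adenoma (1.65 on the log2 scale, SE 0.24, limma adjusted p = 8.02e-05) and 2.16-fold lower in disseminated cells than in metastases (-1.11, SE 0.23, adjusted p = 0.00369). It lost the latter call without metastasis sample 2, where no member was called in that comparison. Both calls cross the slide sets and cannot be told apart from slide and scan day. Means were higher in both groups of slides 6 to 8 (carcinoma 0.81, metastases 1.60) than in both groups of slides 9 to 11 (adenoma -0.04, disseminated cells 0.49). The order of means was metastases, carcinoma, disseminated cells and adenoma. Metastases exceeded carcinoma by 0.80 (adjusted p = 0.0178) and carcinoma exceeded adenoma by 0.85 (adjusted p = 0.0215), both less than 2-fold. Carcinoma and disseminated cells did not differ beyond their spread (adjusted p = 0.318). Disseminated cells exceeded adenoma by 0.54 (SE 0.23), which did not pass the test (limma adjusted p = 0.109).

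Lif encodes leukemia inhibitory factor, a ligand of gp130 and the LIF receptor. The probe AK019683 (chr11:4226323-4226382, + strand, mm7), which is described as a leukemia inhibitory factor clone but does not carry the name Lif, had mean log2 ratios of 0.81 (adenoma), 1.12 (carcinoma), 0.66 (disseminated cells) and 0.35 (metastases). Unlike the ligands above, this probe was lower in metastases than in carcinoma, with no overlap, by 0.77 on the log2 scale (-0.77, SE 0.15, limma adjusted p = 0.00182), less than 2-fold.

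No receptor chain was called with the processing used here. Il6ra, the chain that gives a cell its response to IL-6, was read by probes at chr3:90003321-90003380 (probe 1) and chr3:90013069-90013128 (probe 2), both on the - strand of mm7. With probe 1, the adenomas had log2 ratios of 0.20, 0.28, 0.28, 0.35 and 0.42, the carcinomas ran from 0.56 to 1.0 with a median of 0.76, the disseminated samples from -0.09 to 0.57 with a median of 0.35, and the metastases gave 0.19, 0.51, 0.07, 0.56 and 0.36. Carcinoma was thus the group with the highest Il6ra. It exceeded disseminated cells by 0.46 with probe 1 (limma adjusted p = 0.00542) and by 0.38 with probe 2 (adjusted p = 0.0217), and metastases by 0.43 (adjusted p = 0.0141) and 0.45 (adjusted p = 0.0130). Carcinoma exceeded adenoma by 0.46 with probe 1 (adjusted p = 0.0163) and by 0.09 with probe 2 (adjusted p = 0.672). All of these changes were less than 2-fold, and with both probes disseminated cells and metastases did not differ beyond their spread (adjusted p = 0.891 and 0.774).

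Il6st, the shared signalling chain gp130, was read by a probe at chr13:109662276-109662335 (+ strand, mm7). The metastases had log2 ratios of -0.33, 0.12, -0.78, -0.19 and -0.89, above every carcinoma (-1.72 to -0.93, median -1.33). The adenomas were at -0.83, -0.69, -1.92, -0.91 and -1.05, and the disseminated samples ran from -1.32 to -0.16 with a median of -0.87. Il6st was higher in metastases than in carcinoma by 0.87 (SE 0.23, limma adjusted p = 0.0126) and than in adenoma by 0.66 (SE 0.24, adjusted p = 0.0484), less than 2-fold in each case. The change from carcinoma passed the 2-fold line and the test with Aquantile or no step between arrays (1.04, adjusted p = 0.00491) and with the authors' log2 table (1.09, adjusted p = 0.00549).

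Osmr, the chain that pairs with gp130 to bind oncostatin M, is common on epithelial and stromal cells. Its probe 1 lies at chr15:6640433-6640492 and probe 2 at chr15:6641790-6641849 (- strand, mm7). With probe 1 the adenomas had log2 ratios of 1.38, 1.54, 1.21, 1.06 and 1.03, the carcinomas ran from -0.996 to 1.36 with a median of 0.44, the disseminated samples from -2.07 to 0.76 with a median of -0.75, and the metastases gave 0.69, 1.44, -0.84, -3.11 and -0.11. All disseminated samples lay below all adenomas, but the spread inside the later groups was wide, and the log2 change of -1.84 (SE 0.65) had a limma adjusted p of 0.0523. With probe 2 it was -0.65 (SE 0.29, adjusted p = 0.130). Probe 1 sat at the threshold: it was called with offset 0 in normexp (adjusted p = 0.0466), without dim probes (0.0389), with 1 probe a gene (0.0482), with only the 2 groups compared (0.0262) and with slide as a random block (0.0463).

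Stat3 itself was not called in any comparison with the processing used here, and its probes differed. Probe 1 (10 spots, chr11:100997323-100997382, - strand, mm7) had log2 ratios of 2.38, 2.25, 2.86, 2.22 and 2.47 in adenoma. The carcinomas ran from 2.16 to 3.21 with a median of 2.56 and the disseminated samples from 1.55 to 2.88 with a median of 2.27. The metastases gave 1.63, 1.96, 1.54, 1.33 and 2.79, and 4 of the 5 lay below every adenoma and carcinoma. It was lower in metastases than in carcinoma by 0.80 on the log2 scale (-0.80, SE 0.27, limma adjusted p = 0.0421), less than 2-fold. Probe 2 (chr11:100994187-100994246, - strand), designed on another transcript record (AK079406), had mean log2 ratios of 0.34 in adenoma and 0.58 in disseminated cells against -0.32 in carcinoma and -0.38 in metastases. The latter probe was thus higher in both groups of slides 9 to 11 than in both groups of slides 6 to 8. Its difference of 0.90 between disseminated cells and carcinoma (adjusted p = 0.00972) cannot be told apart from the slide set, and within the set it was 0.24 between disseminated cells and adenoma (adjusted p = 0.540). The size of probe 2 changes depended on the processing. Against carcinoma the disseminated cells were called higher with offset 0 (1.30), the processed signals (1.95) and the authors' log2 table (1.02). The metastases were called lower than adenoma by these settings (-1.13, -2.14 and -1.01) beside -0.72. The array measures Stat3 mRNA and not the phosphorylation that activates the protein.

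Socs3, the feedback inhibitor of gp130 and Jak, was read by a probe at chr11:118075211-118075270 (- strand, mm7). The adenomas had log2 ratios of 0.12, 0.19, 0.27, 0.00 and -0.15. The carcinomas ran from -0.15 to 2.80 with a median of 0.14, and without sample 6 no carcinoma was above 0.25. The disseminated samples ran from 1.39 to 3.28 with a median of 2.02, and the metastases gave 2.35, 0.93, 3.07, 4.31 and 0.85. Every disseminated sample and every metastasis lay above all adenomas and above 5 of the 6 carcinomas. Socs3 was 3.19-fold higher in disseminated cells than in carcinoma (1.67 on the log2 scale, SE 0.56, limma adjusted p = 0.0343) and 4.29-fold higher than in adenoma (2.10, SE 0.59, adjusted p = 0.0182). In metastases it was 3.46-fold higher than in carcinoma (1.79, SE 0.59, adjusted p = 0.0352) and 4.65-fold higher than in adenoma (2.22, SE 0.61, adjusted p = 0.0110). Metastases and disseminated cells did not differ beyond their spread (adjusted p = 0.931), nor did carcinoma and adenoma (adjusted p = 0.691).

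Prdm1 was read by a probe at chr10:44250799-44250858 (- strand, mm7). The adenomas had log2 ratios of -0.59, -0.68, -1.16, -1.17 and -1.36, of which the -1.16 and -1.17 were not well above background. The carcinomas ran from -1.75 to 1.20 with a median of -1.46, and without sample 6 the highest was -1.20. The disseminated samples ran from 0.84 to 3.19 with a median of 1.52, and the metastases gave 1.20, -0.70, 1.55, 2.73 and 0.66. No disseminated sample overlapped the adenomas, and metastasis sample 2, at -0.70, was the only metastasis inside the adenoma range. Prdm1 was 7.70-fold higher in disseminated cells than in carcinoma (2.94 on the log2 scale, SE 0.56, limma adjusted p = 0.00114) and 7.31-fold higher than in adenoma (2.87, SE 0.59, adjusted p = 0.00333). In metastases it was 4.46-fold higher than in carcinoma (2.16, SE 0.59, adjusted p = 0.0140) and 4.23-fold higher than in adenoma (2.08, SE 0.62, adjusted p = 0.0166). Disseminated cells and metastases (0.79, adjusted p = 0.431) and adenoma and carcinoma (adjusted p = 0.953) did not differ beyond their spread.

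**Figure D2:**
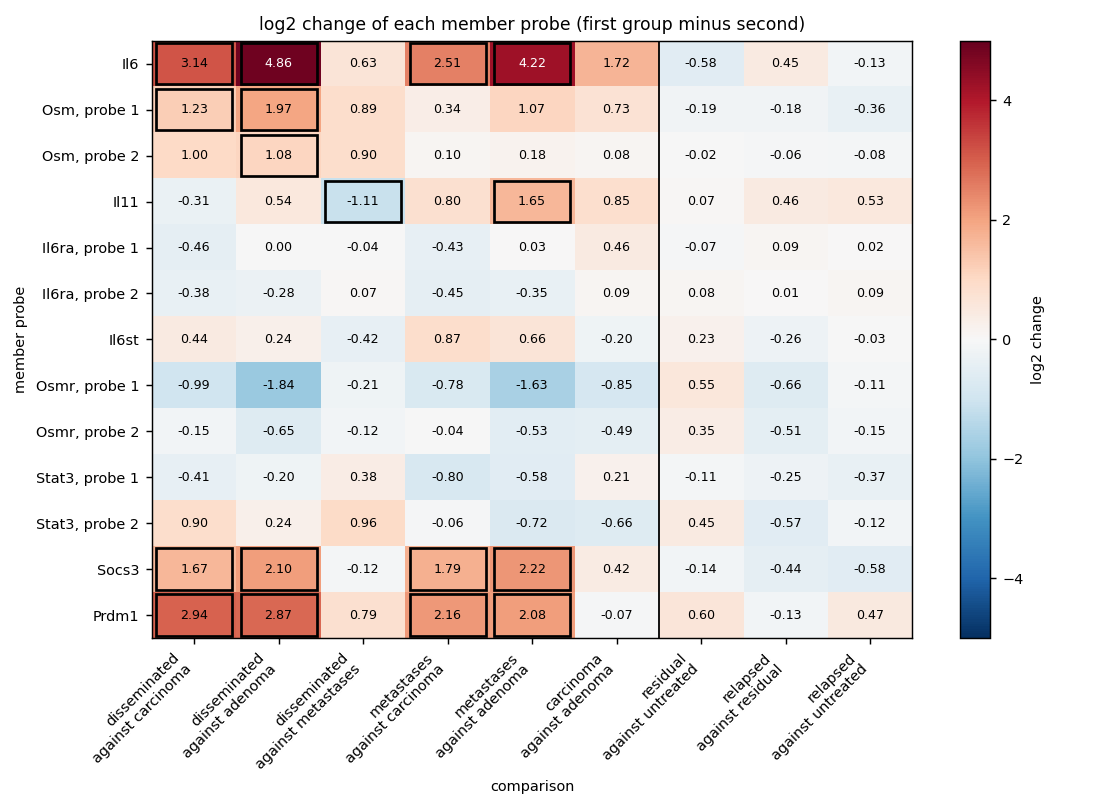
Log2 change of the 13 member probes (rows) in the 6 progression and 3 chemotherapy comparisons (columns), with color for direction and size, and called changes marked. Il6, Socs3 and Prdm1 are called higher in 4 columns each, by up to 4.86 for Il6 in disseminated cells against adenoma, and the chemotherapy columns hold no called change.

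Leaving out carcinoma sample 6 raised the changes against carcinoma. Without it Il6 was 13.0-fold higher in disseminated cells than in carcinoma (3.70 on the log2 scale, limma adjusted p = 0.000621), Prdm1 10.5-fold (3.40, adjusted p = 8.16e-05), Socs3 4.39-fold (2.13, adjusted p = 0.00313) and Osm 2.89-fold with probe 1 (1.53, adjusted p = 0.00628). Probe 2 of Osm was then called as well (1.08, adjusted p = 0.000404), so that 5 member probes were called, with 13.0% of all probes called. For metastases against carcinoma the changes without that sample were 3.06 for Il6, 2.25 for Socs3 and 2.61 for Prdm1 on the log2 scale, with 12.7% of all probes called. Without disseminated sample 6, the changes in disseminated cells against carcinoma were 3.52 for Il6, 1.81 for Socs3, 3.15 for Prdm1 and 1.16 for Osm probe 1, and those against adenoma 5.24, 2.24, 3.08 and 1.89, all called but Osm probe 1 against carcinoma (limma adjusted p = 0.0663). With each of the 12 samples left out in turn, Il6 and Prdm1 stayed called in disseminated cells against carcinoma. Socs3 lost its call without carcinoma sample 1, 2, 3, 4 or 5 or disseminated sample 1, 3 or 5, and Osm probe 1 without the same carcinoma samples or disseminated sample 1, 5 or 6, with adjusted p-values of up to 0.0830 and 0.0870. In metastases against carcinoma, Il6 lost its call without carcinoma sample 1, 3 or 5 or metastasis sample 1, 3 or 4 (limma adjusted p of up to 0.0788), and Socs3 without carcinoma sample 1, 2, 3, 4 or 5 or metastasis sample 1, 3 or 4 (up to 0.115). Prdm1 stayed called there with each of the 11 samples left out, and a test without moderation called 0 of the 3.

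Within slides, the rise in disseminated cells over adenoma was seen on every slide. For Il6 the difference in mean log2 ratio was 3.48 on slide 9, 6.16 on slide 10 and 5.58 on slide 11. For Prdm1 it was 2.27, 4.19 and 2.23, for Socs3 2.15, 2.89 and 1.16, and for Osm with probe 1 2.40, 2.04 and 1.43. The comparison of metastases with carcinoma was less even. Il6 differed by 2.14 on slide 6, 3.75 on slide 7 and 1.05 on slide 8, but Socs3 by 2.00, 3.10 and -0.41 and Prdm1 by 2.57, 3.70 and -0.70. Slide 8 held carcinoma sample 6 and a single metastasis, sample 2. With slide as a block, Il6 (2.47, limma adjusted p = 0.0452), Socs3 (1.81, adjusted p = 0.0445) and Prdm1 (2.18, adjusted p = 0.0169) were still called between metastases and carcinoma. In a fit of only these groups Socs3 was not called, while Il6 and Prdm1 were.

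Markers of other cell types were measured on the same arrays. In bulk samples, fewer cells of a type and less RNA per cell cannot be told apart. The macrophage list held 14 genes, with Cd14 the brightest, and its mean log2 ratio in disseminated cells was 4.05 ± 0.59 (SD, n = 6), beside 3.07 ± 1.87 (n = 5) in metastases, 1.12 ± 1.93 (n = 6) in carcinoma and 0.42 ± 0.23 (n = 5) in adenoma. The summed sample signal of the list ran from 143549 to 217072 in adenoma, from 691875 to 1329582 in disseminated cells and from 309533 to 1093210 in metastases, and in carcinoma from 137241 to 219484 without sample 6, which had 1378585. Of these genes 8 were called higher in disseminated cells than in carcinoma (13 without carcinoma sample 6), beside 10.5% of all probes (13.0% without that sample). Against adenoma 12 were called higher, beside 9.2% of all probes. In metastases 3 were called higher than in carcinoma (10 without sample 6), beside 9.81% of all probes (12.7% without it). Against adenoma 9 were called higher in metastases, beside 13.9%. All 14 were well above background in every disseminated sample and every metastasis, while in adenoma between 10 and 13 were, and Cd163, a scavenger receptor of macrophages, was not in any adenoma. Lyz2, the lysozyme of myeloid cells, rose by 5.55 on the log2 scale (adjusted p = 0.00216) and Csf1r, the receptor for the macrophage growth factor, by 4.21 (adjusted p = 0.00138) in disseminated cells against carcinoma. Carcinoma sample 6 had a macrophage mean of 4.97, and the other carcinomas lay between -0.28 and 0.87.

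Lists of other cell types were read as well, beside 10.5% of all probes called in disseminated cells against carcinoma (13.0% without carcinoma sample 6). In metastases against carcinoma 9.81% of all probes were called (12.7% without that sample). Alveolar macrophage markers (9 genes measured, Chil3 the brightest) had mean log2 ratios of 0.30 (adenoma), 1.11 (carcinoma), 4.29 (disseminated cells) and 3.05 (metastases), and 8 of 9 were called higher in disseminated cells than in carcinoma. Neutrophil markers (11 genes, Ltf the brightest, a gene that mammary epithelium also expresses) had means of 1.47, 2.08, 4.95 and 2.75 in the same order, with 10 of 11 called higher in disseminated cells than in carcinoma. Lung epithelium markers had means of 1.08, 1.15, 2.68 and 1.94, with 5 of 10 called. T and NK cell markers had 7 of 14 called, B cell markers 3 of 8, endothelial markers 4 of 10 and plasma cell markers 1 of 8 (Irf4), all higher, and fibroblast markers 1 of 10, lower (Postn). The plasma cell and fibroblast counts were near the 10.5% of all probes. Against adenoma, which shared slides with disseminated cells, T and NK cell markers had 2 called higher and 1 lower, beside 9.2% of all probes. B cell markers had 2, endothelial markers 7 and plasma cell markers 1 higher there, and fibroblast markers 2 lower. The T and NK cell means were 0.83 in adenoma, -0.03 in carcinoma and 1.05 in disseminated cells. Mammary epithelium markers (12 genes, Krt8 the brightest) had means of 2.86, 2.76, 1.26 and 2.22. Their spread was wide in the later groups, from -0.36 to 2.99 over the disseminated samples and from -0.17 to 3.31 over the metastases. Of the 12, 2 were called in disseminated cells against carcinoma, both lower, and 4 without carcinoma sample 6. Without that sample the counts of the other lists named in this paragraph were the same in disseminated cells against carcinoma, while in metastases against carcinoma the count went from 0 to 3 higher for neutrophils, from 4 to 6 higher for alveolar macrophages, from 0 to 1 higher for plasma cells, from 1 to 2 lower for mammary epithelium and from 1 to 0 lower for endothelium. Krt8, a keratin of luminal cells, was lower in disseminated cells than in carcinoma by 3.21 on the log2 scale (-3.21, adjusted p = 0.0253), as was its partner Krt18 (-3.20, adjusted p = 0.0155).

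**Figure D3:**
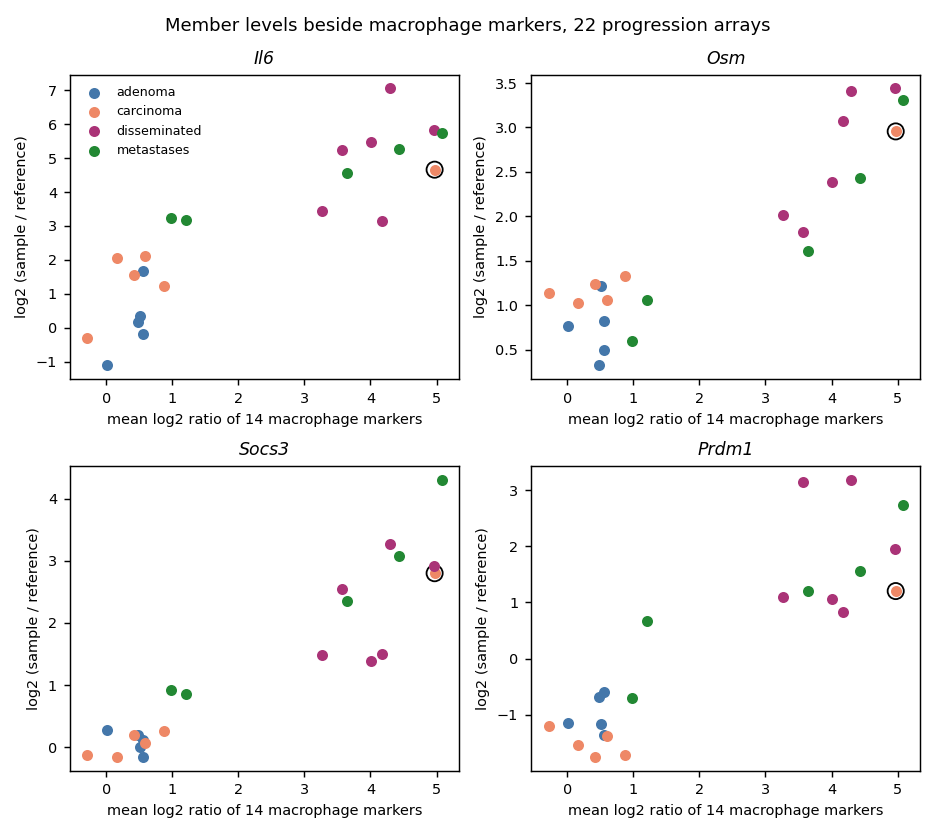
Log2 ratio of Il6, Socs3, Prdm1 and Osm (probe 1) in each of the 22 progression samples (vertical axes) against the mean log2 ratio of the 14 macrophage markers in the same sample (horizontal axes), colored by group. Samples with a high marker mean, carcinoma sample 6 (4.97) among them, have high values of all 4 genes, and metastasis samples 2 and 5 lie at marker means of 0.99 and 1.21 with Il6 at 3.23 and 3.17.

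Across the 22 progression samples, which share groups and slides, the Pearson correlation with the macrophage mean was 0.889 for Il6, 0.930 for Socs3, 0.889 for Prdm1 and 0.912 for Osm probe 1, and -0.723 for Osmr probe 1. With the mammary epithelium mean it was -0.711 for Il6, -0.726 for Socs3, -0.811 for Prdm1, -0.654 for Osm and 0.885 for Osmr. These values are descriptions with no test. Metastasis samples 2 and 5, which had the lowest macrophage means of that group (0.99 and 1.21), had Socs3 at 0.93 and 0.85 and Prdm1 at -0.70 and 0.66, the lowest of the metastases. Their Il6, at 3.23 and 3.17, was also the lowest of the metastases and exceeded every adenoma and every carcinoma but sample 6. Disseminated cells and metastases were taken from the lung of the host and sorted for GFP, which marks donor cells. How many host cells, or donor cells of other types, were in the sorted samples was not measured. In disseminated cells against carcinoma, 5 of 10 lung epithelium markers and 8 of 9 alveolar macrophage markers were called higher, beside 10.5% of all probes. The part of macrophages or other non-epithelial cells in the rise of Il6, Socs3, Prdm1 and Osm was not tested.

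Some members varied together and others did not. Osm, Osmr, Il6ra and Stat3 were read here by their brighter probe, probe 1 in each case, so their correlations are those of that probe. The correlation over the same 22 samples was 0.882 between Il6 and Socs3, 0.881 between Il6 and Prdm1, 0.921 between Socs3 and Prdm1, 0.795 between Il6 and Osm, and -0.811 between Socs3 and Osmr. Stat3 correlated with Il6, Socs3, Prdm1 and Osm between -0.653 and -0.527, Il6ra between -0.319 and -0.113, and Il11 between 0.204 and 0.492. Among 15751 genes measured well enough to compare, those whose pattern was most like Il6 were Gpr84 (r = 0.935), a receptor for medium-chain fatty acids on myeloid cells, the chemokine gene Cxcl3 (r = 0.934) and Synj1 (r = 0.933). Those most like Socs3 were AI504432 (r = 0.981), Malt1 (r = 0.973), a paracaspase of NF-kB signalling, and the adenosine receptor gene Adora2b (r = 0.970). Prdm1 was most like Nfe2l2 (r = 0.979), which encodes the antioxidant factor Nrf2, Zc3h12c (r = 0.972) and Napsa (r = 0.968), which encodes an aspartic protease of lung epithelium and kidney. Osm was most like Nceh1, the complement receptor gene C5ar1 and the macrophage marker Cd68 (r = 0.939, 0.933 and 0.932), and Osmr was most like Pkp2, a desmosome component, Mpzl1 and Nfib (r = 0.947, 0.945 and 0.940). Il11 had weaker neighbours, led by Aen (r = 0.855), as did Il6st, led by Cdr2 (r = 0.814), Il6ra, led by C030034L19Rik (r = 0.894), and Stat3, led by Clk3 (r = 0.825).

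The rest of the pathway was read through lists of other ligands, receptors, signal carriers, inhibitors and targets. Of 7 other ligands of the family, Ebi3, the subunit shared by IL-27 and IL-35, rose in disseminated cells against carcinoma by 3.29 on the log2 scale (limma adjusted p = 0.00252) and against metastases by 2.55 (adjusted p = 0.0284). Cardiotrophin (Ctf1, -1.53, adjusted p = 0.0153) was lower in disseminated cells than in carcinoma, and the median of the 7 was -0.18. Of the 5 other receptors measured, limma called 0 in any of these comparisons, beside 3.35% to 13.9% of all probes in the progression comparisons. Their median change was -0.11 in disseminated cells against carcinoma, where 10.5% of all probes were called and 3 of the 5 receptors had an unadjusted p below 0.05. Il11ra2 had no probe.

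Of 10 Jak kinases and signal carriers, 2 were called in disseminated cells against carcinoma, both higher, beside 10.5% of all probes (3 without carcinoma sample 6, beside 13.0%): Jak2 (2.26, limma adjusted p = 0.000861), a kinase that binds gp130, and the adaptor gene Grb2 (1.76, adjusted p = 0.000340), with a median of 0.54 over the 10. In metastases against carcinoma, Jak2 (1.60, adjusted p = 0.0138) and the docking protein gene Gab1 (1.51, adjusted p = 0.0118) were among the genes called higher. Jak1 was higher in disseminated cells than in metastases (1.63, adjusted p = 5.39e-05) and lower in metastases than in adenoma (-1.09, adjusted p = 0.000353). Of 8 inhibitors of the pathway other than Socs3, 2 were called in disseminated cells against carcinoma, beside the same 10.5% of all probes, both higher, Ptprc (5.74, adjusted p = 0.000494) and Ptpn6 (2.49, adjusted p = 0.00131). Both encode phosphatases, CD45 and SHP-1, that are known from leukocytes. The median of the 8 was 0.41.

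Of 32 Stat3 target genes, 7 rose and 5 fell in disseminated cells against carcinoma, with a median change of 0.02, close to the -0.05 of all probes, of which 10.5% were called. Among those that rose were Batf (3.15, limma adjusted p = 0.00980), a factor of T and B cell differentiation, the anti-inflammatory cytokine gene Il10 (3.06, adjusted p = 0.0202) and Hif1a (2.86, adjusted p = 0.00268), the hypoxia factor, and the fibrinogen chain gene Fgg fell (-2.71, adjusted p = 0.00155). Against adenoma, where 9.2% of all probes were called, 6 rose and 3 fell, with haptoglobin (Hp) up by 3.38 (adjusted p = 0.00388) and the IL-4 receptor gene Il4ra by 2.21 (adjusted p = 0.00438). In metastases 2 were higher and 2 lower than in carcinoma, and 3 higher and 3 lower than in adenoma, beside 9.81% and 13.9% of all probes called. Without carcinoma sample 6 the counts against carcinoma were 4 higher and 4 lower, with 12.7% of all probes called. In carcinoma against adenoma, with 3.35% of all probes called, 4 rose and 2 fell: Hp rose by 3.99 (adjusted p = 0.00179), the transcription factor gene Cebpb by 1.90 (adjusted p = 0.0179) and lipocalin 2 (Lcn2) by 1.38 (adjusted p = 0.0428), while Myc fell (-1.99, adjusted p = 0.00144). In disseminated cells against metastases, with 6.94% of all probes called, 4 were called, all higher, among them Bcl3 (1.81, adjusted p = 0.00110) and the kinase gene Pim1 (1.45, adjusted p = 0.0367).

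Of 10 genes that Prdm1 is known to repress, limma called 0 in disseminated cells against carcinoma, where 10.5% of all probes were called, their median change was 0.66, 6 had an unadjusted p below 0.05 and Prdm1 itself rose by 2.94. Against adenoma, with 9.2% of all probes called, Id3 rose (1.11, limma adjusted p = 0.0281) and Myc fell (-1.36, adjusted p = 0.0108). In carcinoma against adenoma, where Prdm1 was not called and 3.35% of all probes were, 3 of the 10 fell: interferon gamma (Ifng, -3.54, adjusted p = 0.00505), the MHC class II activator gene Ciita (-2.08, adjusted p = 0.00678) and Myc (-1.99, adjusted p = 0.00144). In metastases against adenoma, with 13.9% of all probes called, Ciita (-2.11, adjusted p = 0.00283), Bach2 (-2.06, adjusted p = 0.000165) and Myc (-2.58, adjusted p = 6.07e-05) fell and Id3 rose (1.52, adjusted p = 0.00366).

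No member probe was called by limma in residual against untreated tumors, in relapsed against residual tumors or in relapsed against untreated tumors, while 0.0777%, 0.187% and 0.00243% of all probes were called. At an unadjusted p below 0.05 there were 2, 3 and 2 of the 13 member probes, and 1, 0 and 1 by a test without moderation. The median change over the 13 was 0.07, -0.18 and -0.11 on the log2 scale. RNA of this experiment was amplified in fewer rounds than that of the progression experiment, so that levels are not set against those above.

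**Figure D4:**
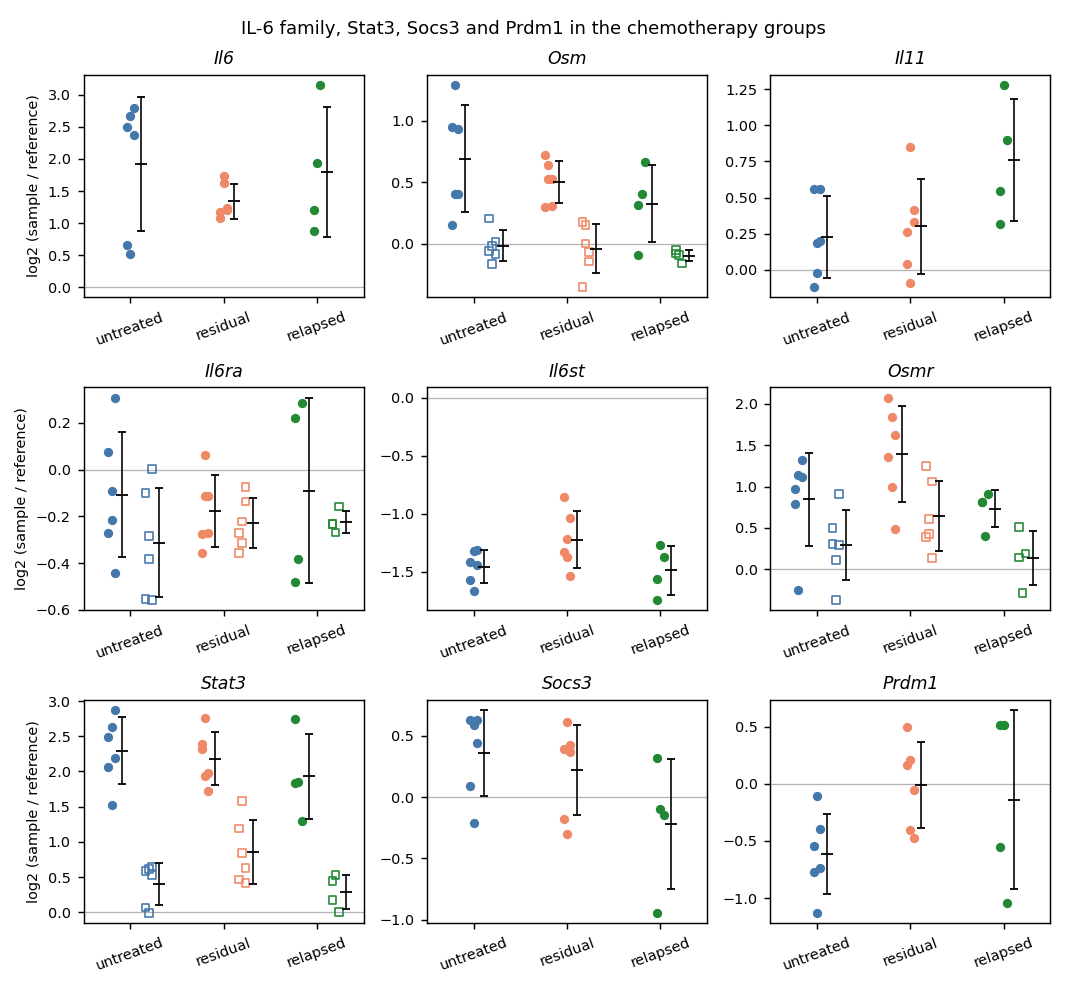
Log2 ratio of sample to reference (vertical axis) of each member in every untreated, residual and relapsed tumor, with the group mean and SD as bars. Filled circles are a gene's only or first probe and open squares its second, and the 3 groups overlap in every panel.

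Il6 ran from 0.52 to 2.80 with a median of 2.44 in the 6 untreated tumors and from 1.08 to 1.74 with a median of 1.22 in the 6 residual tumors, and the 4 relapsed tumors gave 0.88, 1.93, 3.16 and 1.21. Of the untreated tumors 4 were at 2.37 or above and 2 at 0.66 or below, and the residual tumors lay between them. The change from untreated to residual was -0.58 (SE 0.43, limma adjusted p = 0.750). Prdm1 ran from -1.13 to -0.11 with a median of -0.64 in untreated tumors and from -0.48 to 0.50 with a median of 0.06 in residual tumors, and the relapsed tumors gave 0.52, 0.52, -1.04 and -0.55, with the -1.04 not well above background. Of the 6 residual tumors 4 lay above every untreated tumor, and the change of 0.60 (SE 0.26) had an adjusted p of 0.520. Only slide 2 held both groups, where residual tumors exceeded the untreated tumor by 0.82, and with slide as a block the change was 0.19 (limma adjusted p = 0.946).

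Il11 was at 0.32, 1.28, 0.90 and 0.54 in relapsed tumors and ran from -0.12 to 0.56 with a median of 0.19 in untreated tumors, and the groups overlapped. The difference of 0.53 on the log2 scale (SE 0.20, limma adjusted p = 0.484) did not pass the test, and it was 0.08 with slide as a block and 0.16 on slide 5, the only slide that held both groups. Socs3 had means of 0.36 (untreated), 0.22 (residual) and -0.22 (relapsed), the last lower than untreated by 0.58 (-0.58, SE 0.24, adjusted p = 0.554). Probe 1 of Osmr had means of 0.85, 1.39 and 0.73, and Il6st of -1.45, -1.22 and -1.49, in the same order. Probe 2 of Osm was not well above background in any of the 16 tumors. Stat3 probe 1 had means of 2.30, 2.18 and 1.93. The macrophage mean was highest in untreated tumors, at 1.0 ± 1.21 (SD, n = 6), beside 0.39 ± 0.82 (n = 6) in residual tumors and 0.09 ± 0.71 (n = 4) in relapsed tumors, and the mammary epithelium mean was 3.93, 4.11 and 3.93.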

How the data were processed

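The 38 two-color Agilent arrays comprised those of 22 progression and 16 chemotherapy samples. The authors deposited spot intensity values from Feature Extraction 10.7 without normalization, with detection flags as other columns, and a table of log2 sample/reference ratios whose scale and direction were checked against the arrays and for which the study's methods give loess and quantile steps. Cy5 labelled the samples and Cy3 the reference on every array, with no dye swaps, so a dye effect of a probe is shared by all samples and cancels between groups. Progression RNA was amplified in 2 rounds.

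From the intensities, background was corrected with normexp (offset 50), arrays were normalized by loess within and by quantile between the arrays of each experiment in limma 3.58.1 (R 4.3.3), control spots and 0.0428% of spots flagged as non-uniform were left out, and spots of a probe were averaged. Of 41174 probes, 22951 were named by accession through the RefSeq table. Both experiments were fitted apart, with all groups of an experiment in 1 model and no covariate, and p-values of limma's moderated test were adjusted by Benjamini-Hochberg. The members and lists were chosen with earlier results of these data known. List genes are named where called and well above background in the higher group, at most 4 a list and comparison, and genes of like pattern are the 3 with the highest correlation. Gene lists came from background knowledge and used 1 probe a gene, and the values of some list genes are not reported here. The procedure was tested on simulated data. Labels do not say which samples came from separate animals, so p-values measure the spread between these samples. The study's methods give 5 samples a group and the labels 4 to 6. Alternatives were a normexp offset of 0, the scanner's processed signals, median centring, Aquantile or no step between arrays, the authors' log2 table, leaving out dim probes, 1 probe a gene, a block for slide or for replicate number, a fit of only the groups compared, a test without moderation, no minimum fold, an adjusted p below 0.01 and each sample left out.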

Additional observations from a re-analysis of the deposited data

Results flagged for a closer look

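Among 91 sets of values (a member probe in a group of 4 to 6 samples), 5 held a sample whose gap to the nearest other sample was above Dixon's critical value for the size of the group, and chance gives about 1 in 20. In 4 of the 5 it was carcinoma sample 6: Socs3 at a log2 ratio of 2.80, with the nearest carcinoma at 0.25, Prdm1 at 1.20 with the nearest at -1.20, Osm probe 1 at 2.96 with the nearest at 1.33, and Osm probe 2 at 0.53 with the nearest at 0.12. The same sample had the macrophage mean of 4.97 given above, a neutrophil mean of 3.95 and a mammary epithelium mean of 1.75, beside 2.68 to 3.15 in the other carcinomas, and its part in these values was not tested. The other set was Osmr probe 1 in the untreated tumors, where sample 5 was at -0.25 and the nearest tumor at 0.79; probe 2 was also lowest in that tumor, at -0.37.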

How the results depend on the processing

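No change reversed in direction among the called members under any alternative fit. Within slides, Socs3 and Prdm1 in metastases against carcinoma were negative on slide 8 (-0.41 and -0.70). Of the counts of called members, 195 stayed within 1.5 times the main count and 34 did not. The 195 include counts of 0 that stayed 0, as in the chemotherapy comparisons. Aquantile gave the same log2 changes as no between-array step, so these settings are not separate alternatives. In disseminated cells against metastases the count of 1 became 3 with the scanner's processed signals, with offset 0 in normexp, with no minimum fold and with no between-array step or Aquantile, 2 with median centring, with the deposited log2 ratios and with the replicate block, and 0 with a test without moderation; the probes added were Stat3 probe 2 and Osm probe 2. In carcinoma against adenoma the count of 0 became 1 with the processed signals (Stat3 probe 2) and 2 with no minimum fold. A test without moderation gave 2 in disseminated cells against carcinoma (Il6 and Prdm1) and 0 in metastases against carcinoma. With no minimum fold the counts were 8 in disseminated cells against carcinoma, 8 in metastases against carcinoma and 7 in metastases against adenoma, and with an adjusted p below 0.01 they were 2, 0 and 2.

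Leaving out each sample in turn gave 2 to 5 called members in disseminated cells against carcinoma, 5 to 6 in disseminated cells against adenoma, 0 to 4 in disseminated cells against metastases (0 without metastasis sample 2, 4 without metastasis sample 4), 1 to 4 in metastases against carcinoma and 3 to 6 in metastases against adenoma, and 0 in carcinoma against adenoma and in the chemotherapy comparisons. Prdm1 in metastases against adenoma lost its call without metastasis sample 4, and Osm probe 2 in disseminated cells against adenoma without disseminated sample 4. Calls were gained by Osmr probe 1 without disseminated sample 4 or 6 (against adenoma, -2.11 and -2.08) or metastasis sample 2 (metastases against adenoma, -2.08), by Stat3 probe 1 without metastasis sample 5 (metastases against carcinoma, -1.03), by Stat3 probe 2 without disseminated sample 1 or 6 (against carcinoma, 1.05 and 1.08) and without disseminated sample 1, 4 or 6 or metastasis sample 4 (disseminated cells against metastases, 1.01 to 1.14), by Osm probe 1 without metastasis sample 2 (metastases against adenoma, 1.38) or 4 (disseminated cells against metastases, 1.27), and by Osm probe 2 against carcinoma without carcinoma sample 1 or 6 or disseminated sample 1, 3, 5 or 6 (1.0 to 1.09) and against metastases without metastasis sample 4 (1.0). The cause was not tested.

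Samples with the same number varied together in some pairs and not in others, so the numbers were not taken to pair them: correlations of their deviations from the group means ran from -0.39 to 0.29 over 31 pairs in the progression experiment (8 over 0.1), where 2 of 22 samples correlated best with their own number, and from -0.40 to 0.43 over 14 pairs in the chemotherapy experiment (6 over 0.1), where 6 of 16 did. With the replicate block, Socs3 in disseminated cells against adenoma had an adjusted p of 0.0509. Slide as a fixed block could be fitted only for disseminated cells against adenoma, metastases against carcinoma and the chemotherapy comparisons, and as a random block its correlation was 0.0603 and 0.0137 in the progression and chemotherapy experiments. The counts of list genes without carcinoma sample 6 were added after the data were seen.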
